A study of Rattus norvegicus with 9 samples.

Results

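S100 proteins are small calcium-binding proteins with paired EF-hand loops, and most of them work as dimers that bind a partner protein once calcium rises. Inside cells they act on the cytoskeleton, on annexins at membranes and on calcium channels and pumps, and several are also released and bind receptors such as RAGE and Toll-like receptor 4. In skeletal muscle S100a1 is the member of the fibre itself, whereas S100a4, S100a6, S100a10 and S100a11 are also abundant in fibroblasts, endothelium and other cells between the fibres, and S100a8 and S100a9 are best known from neutrophils and monocytes.

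The values below are for 8 S100 genes, S100a1, S100a4, S100a6, S100a8, S100a9, S100a10, S100a11 and S100a13, out of 13752 gene IDs in the series. They are a named list, found by matching rat gene IDs to RefSeq symbols. The list was chosen by their FPKM and expected counts in these same 9 libraries, with results already known, so what follows is a description and no independent evidence. The muscle was the gastrocnemius of male rats, 8 weeks old, in 3 groups of 3 libraries. SHAM had a sham operation, and DN had an injured sciatic nerve and no stimulation. DN-SM had the injury and current passed daily through skin electrodes on the left leg for 4 weeks from surgery (25 V, 1 mA, square pulses of 300 ms at 2 Hz). SHAM and DN rats were anaesthetised too and wore the electrodes for 10 minutes with the current off. The labels give neither the kind of nerve injury nor the age at collection, nor whether every library is another animal, so the p-values measure only the spread between these libraries, which may be technical.

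Each library held between 7926445 and 8893843 expected counts, the estimate of reads per gene. Levels are given as FPKM, the deposited value scaled to transcript length and sequencing depth, as mean ± SD with n = 3. Overlap of libraries was judged on FPKM, without the TMM factors, the further scaling between libraries that the edgeR test applied. All 8 genes were listed in all 9 libraries, and every one of their expected counts was a whole number. The library labelled SHAM replicate 2 stood apart: it was the lowest of the SHAM libraries for 6 of the 8 genes and the highest for S100a8 and S100a9, and DN-SM replicate 1 was the lowest of its group for 6. The summed level of 12 fibroblast markers, mostly collagen genes by FPKM, was 387 FPKM in SHAM replicate 2 and 862 and 926 FPKM in SHAM replicates 1 and 3. Markers of skeletal muscle such as Acta1 and Ckm summed to between 105272 and 133148 FPKM in all libraries, most of it Acta1. SHAM replicate 2 differed in its slow-fibre markers, 9 genes that summed to 4480 FPKM there and to 16759 and 10839 FPKM in SHAM replicates 1 and 3.

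S100a4 was the 1 member that passed the test of DN against SHAM, and it was 4.09-fold higher in DN. S100a11 (1.57-fold) and S100a10 (1.56-fold) were higher on average without passing, and S100a10, S100a6, S100a1, S100a13, S100a9 and S100a8 overlapped between these groups. In stimulated muscle S100a4 lay between the other groups in every library. No member passed the test when DN-SM was compared with either other group.

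**Figure D1:**
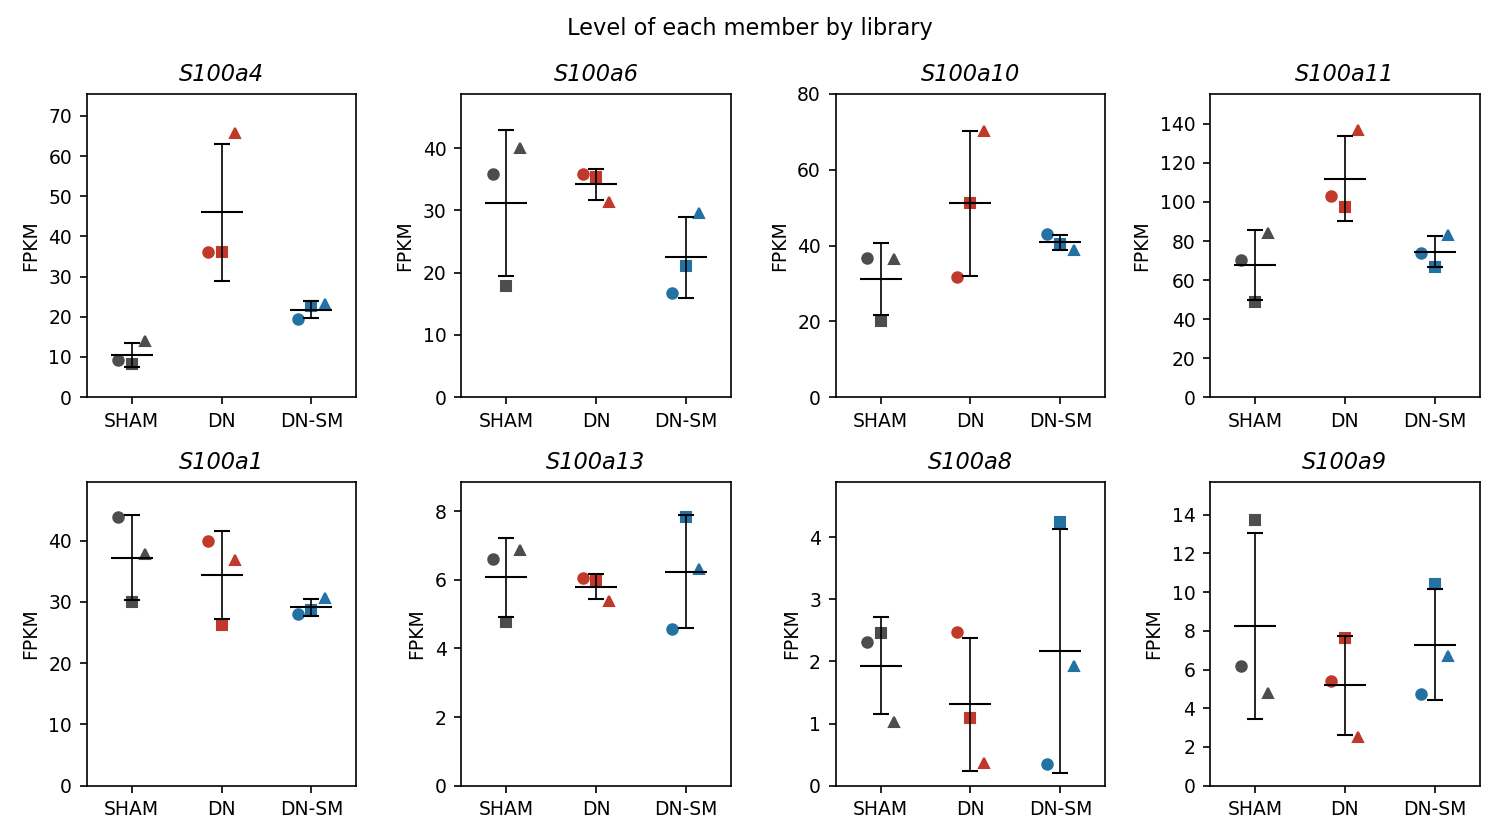
FPKM of the 8 S100 genes (vertical axes, each from 0) in SHAM, DN and DN-SM. Circles, squares and triangles are replicates 1, 2 and 3 of a group, and the black bar and whiskers are the mean ± SD. S100a4 runs from 8.23 to 13.9 FPKM in SHAM, from 36.2 to 65.8 in DN and from 19.5 to 23.2 in DN-SM, with no overlap, while S100a10, S100a6, S100a1, S100a13, S100a8 and S100a9 overlap between SHAM and DN.

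The 8 genes lie in clusters on rat chromosome 2. In RefSeq's GRCr8 annotation, used here only for names and order, S100a13 follows S100a1, S100a5 alone separates S100a4 from S100a6, S100a9 follows S100a8, and a pseudogene separates S100a11 from S100a10. None of the 8 overlapped another annotated gene. S100a4 and S100a6, near neighbours, were unlike in their values, which are given below. The stretches of 120 bases just before the annotated start are shown because they set these neighbours side by side. RefSeq's GRCr8 promoter table held 5 of the 8 genes. They are chr2:178388409-178388528 (+) for S100a4, chr2:178398417-178398536 (+) for S100a6, chr2:181875012-181875131 (+) for S100a11, chr2:178296900-178297019 (+) for S100a13 and chr2:178490623-178490742 (-) for S100a9. Each is written 5′ to 3′ on its own strand, and capitals mark the 2 motifs searched on both strands, the TATA box letters TATAAA and the GC box letters GGGCGG.
S100a4: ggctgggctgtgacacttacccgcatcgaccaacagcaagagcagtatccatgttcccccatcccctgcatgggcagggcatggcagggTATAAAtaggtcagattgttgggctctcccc
S100a6: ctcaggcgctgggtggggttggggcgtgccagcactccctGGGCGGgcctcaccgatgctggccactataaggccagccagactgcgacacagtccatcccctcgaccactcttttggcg
S100a11: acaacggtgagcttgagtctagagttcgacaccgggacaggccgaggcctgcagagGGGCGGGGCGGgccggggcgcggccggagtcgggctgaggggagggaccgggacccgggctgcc
S100a13: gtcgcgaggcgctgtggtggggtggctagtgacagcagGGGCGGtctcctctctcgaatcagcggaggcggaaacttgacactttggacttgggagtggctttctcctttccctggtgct
S100a9: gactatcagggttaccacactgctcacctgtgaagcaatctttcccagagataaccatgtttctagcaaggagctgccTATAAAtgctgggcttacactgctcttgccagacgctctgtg

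The S100a4 stretch held TATAAA, beginning 31 bases before the start, and no GGGCGG. S100a9 also held TATAAA, beginning 42 bases before its start. S100a6 and S100a13 held 1 GGGCGG each and S100a11 held 2 that overlap, and none of these 3 held TATAAA. Among all 33469 stretches of this length in the table, 6.66% held TATAAA and 23.7% held GGGCGG on either strand. The S100a11 stretch was 75% G and C, S100a4 57.5% and S100a9 49.2%, against a median of 53.3% over the table. These are matches of letters and describe the sequence only.

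S100a4, also called metastasin or fibroblast-specific protein, binds non-muscle myosin and is made by fibroblasts, leukocytes and other motile cells. In SHAM it was at 9.32, 8.23 and 13.9 FPKM, in DN at 36.2, 36.2 and 65.8 FPKM, and in DN-SM at 19.5, 22.7 and 23.2 FPKM. Every DN library was above every DN-SM library, and every DN-SM library was above every SHAM library. This order without overlap was found in 90 of the 10129 genes tested (0.889%). The group levels were 10.5 ± 3.03, 46.0 ± 17.1 and 21.8 ± 2.03 FPKM (SD, n = 3), and DN replicate 3 held the highest value.

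In DN against SHAM the log2 fold change of S100a4 was 2.03 (SE 0.259, edgeR adjusted p = 0.00304). It was past the threshold under all 20 alternative analyses run, between 1.74 and 2.32 with any 1 library left out, and 1.91 (adjusted p = 0.00963) without SHAM replicate 2. The 542 counts of S100a4 in DN and 124 in SHAM are modest, so the size of the change carries counting error beside the spread of the libraries. As in any whole tissue, more cells that make S100a4 and more S100a4 RNA per cell cannot be told apart.

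Called genes, those with an adjusted p under 0.05, made up 4.26% of the 10129 genes tested in this comparison, 2.57% higher and 1.70% lower in DN. Of the 8 S100 genes, 7 passed the filter on low counts, and 1 of the 7 was called. The median log2 fold change of the 7 was 0.07, beside -0.01 over all genes tested. Of the 8 genes 2, S100a4 and S100a11, were higher in DN without overlap of the libraries, as were 15.9% of all genes tested. None of the 8 was lower without overlap, beside 6.91% of all genes. The number of called genes over the whole table ran from 58 to 1183 as 1 library was left out, without DN replicate 3 and without SHAM replicate 3.

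**Figure D2:**
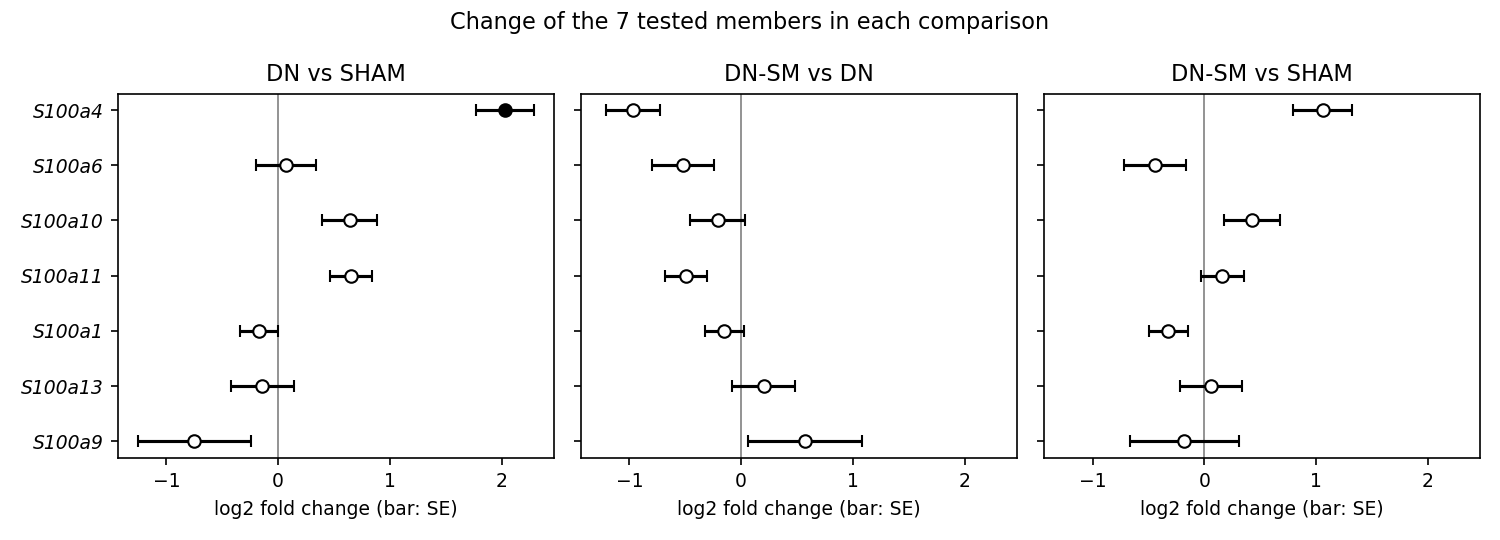
Log2 fold change (horizontal axes) of the 7 tested S100 genes in each of the 3 comparisons, with the SE as the bar. The filled point is past an adjusted p of 0.05: S100a4 in DN against SHAM, at 2.03. Open points did not pass.

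S100a11, or calgizzarin, binds annexin A1 at membranes and takes part in membrane repair. Per length it was the most abundant of the 8 in every library. It was at 70.5, 48.6 and 83.9 FPKM in SHAM, at 103, 97.2 and 137 FPKM in DN, and at 73.7, 66.9 and 83.0 FPKM in DN-SM. The DN libraries were above all the others, and SHAM and DN-SM overlapped. In DN against SHAM its log2 fold change was 0.65 (SE 0.189, edgeR adjusted p = 0.0719), which did not pass. It passed by DESeq2 (adjusted p = 0.0368), with the replicate number as a block (0.0363) and without SHAM replicate 3 (log2 fold change 0.87, adjusted p = 0.00983), whereas it was 0.49 (adjusted p = 0.209) without SHAM replicate 2 and 0.54 (0.236) without DN replicate 3. RefSeq lists several S100a11 pseudogenes, and how their reads were assigned was not tested.

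S100a10, or p11, forms a tetramer with annexin A2 that carries channels and receptors to the membrane. Its levels were 36.8, 20.1 and 36.4 FPKM in SHAM, 31.8, 51.1 and 70.3 FPKM in DN, and 43.0, 40.5 and 38.9 FPKM in DN-SM. The DN libraries spread across both other groups, and the DN-SM libraries were all above SHAM. In DN against SHAM the log2 fold change was 0.64 (SE 0.247, edgeR adjusted p = 0.16). With 1 library left out it ran from 0.39, without DN replicate 3, to 0.86, without DN replicate 1, and it was 0.43 without SHAM replicate 2. RefSeq lists S100a10 pseudogenes too, and how their reads were assigned was not tested.

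S100a6, or calcyclin, binds the calcyclin-binding protein Cacybp and is made by fibroblasts and dividing cells. It was at 35.8, 17.8 and 40.0 FPKM in SHAM, at 35.8, 35.3 and 31.4 FPKM in DN, and at 16.8, 21.1 and 29.6 FPKM in DN-SM. SHAM replicate 2 was as low as DN-SM, and the other SHAM libraries were at or above the top of the DN range. The log2 fold change in DN against SHAM was 0.07 (SE 0.268, edgeR adjusted p = 0.905), and with 1 library left out it ran from -0.19 to 0.33. Within a library, S100a4 stood at 0.261, 0.463 and 0.349 of the S100a6 level in SHAM, at 1.01, 1.03 and 2.10 in DN, and at 1.16, 1.08 and 0.785 in DN-SM. This ratio, which no scaling between libraries can move, was higher in each injured library than in any SHAM library, and DN and DN-SM overlapped. Against S100a11 it was 0.132 to 0.169 in SHAM, 0.352 to 0.479 in DN and 0.264 to 0.339 in DN-SM, with no overlap between any of the groups.

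S100a1 binds the ryanodine receptor and the calcium pump SERCA and strengthens calcium release in striated muscle. Its levels were 43.9, 30.0 and 37.8 FPKM in SHAM, 40.0, 26.3 and 36.9 FPKM in DN, and 28.0, 28.7 and 30.7 FPKM in DN-SM. SHAM and DN covered nearly the same range, and DN-SM lay near its lower end. The log2 fold change was -0.17 in DN against SHAM (SE 0.171, edgeR adjusted p = 0.596) and -0.32 in DN-SM against SHAM (SE 0.173, adjusted p = 0.469). Summed levels of 9 slow-fibre markers ran from 4480 to 16759 FPKM in SHAM, from 16440 to 22513 in DN and from 7998 to 18657 in DN-SM, and their part in the S100a1 values was not tested.

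S100a13 helps cells to export fibroblast growth factor 1 and interleukin 1 alpha, which lack a signal sequence. It was at 6.61, 4.76 and 6.87 FPKM in SHAM, at 6.06, 5.97 and 5.38 FPKM in DN, and at 4.57, 7.84 and 6.32 FPKM in DN-SM. The 3 groups overlapped throughout, and each library held only 18 to 31 counts. Its log2 fold change in DN against SHAM was -0.14 (SE 0.281, edgeR adjusted p = 0.822), a precision that cannot show a small difference.

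S100a8 and S100a9 together form calprotectin, the abundant zinc- and calcium-binding complex of neutrophils. S100a9 was at 6.20, 13.7 and 4.80 FPKM in SHAM, at 5.43, 7.62 and 2.50 FPKM in DN, and at 4.72, 10.4 and 6.71 FPKM in DN-SM. The groups overlapped, and the log2 fold change in DN against SHAM was -0.75 with an SE of 0.505 (edgeR adjusted p = 0.415). Without SHAM replicate 2, the highest library, it was -0.10. S100a8 had 1 to 12 counts per library and did not pass the filter on low counts, so it has no test here. Its levels were 2.31, 2.45 and 1.03 FPKM in SHAM, 2.47, 1.09 and 0.36 FPKM in DN, and 0.35, 4.24 and 1.92 FPKM in DN-SM. Counts summed to 16, 11 and 18 over the libraries of SHAM, DN and DN-SM, and a single count has an exact 95% Poisson interval from 0.0253 to 5.57, which covers counting error only.

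Defining markers of neutrophils were low in these libraries. Of 14 markers written, with S100a8 and S100a9 left out, 11 were measured, 8 of them never reached 1 FPKM in any library, and 8 were at 0 in at least 1 library. Mpo, the granule peroxidase, was listed in DN replicate 2 alone, at 0.36 FPKM, and the neutrophil cytokine receptor Csf3r ran from 0.26 to 1.02 FPKM. Retnlg was at 1.5 and 1.47 FPKM in SHAM replicates 2 and 3, at 0 in SHAM replicate 1 and in all DN libraries, and at 0.38, 1.89 and 0.41 FPKM in DN-SM. S100a8 and S100a9 were highest in SHAM replicate 2 and DN-SM replicate 2 among the SHAM and DN-SM libraries. Retnlg and the collagenase gene Mmp8 (0.49 and 0.58 FPKM) were also highest of their groups there, on 4 to 7 counts each. So were Csf3r (1.02 and 0.59 FPKM, on 28 and 16 counts), Cxcr2 (0.35 and 0.18), Ngp (0.32 and 0.53) and Mmp9 (0.15 and 0.19). Cxcr2, Ngp and Mmp9 had 2 to 5 counts each there. Lcn2, Mpo, Elane, Camp and Ltf were not highest in both libraries. Lcn2, which other cells also make, ran from 0.42 to 10.2 FPKM, and all 11 summed to 1.89 to 10.6 FPKM. Red blood cell genes, a sign of blood in the tissue, summed to 10677 to 18659 FPKM in SHAM, 5569 to 14188 in DN and 4198 to 18571 in DN-SM. This sum was lowest of its group in SHAM replicate 2 (10677 FPKM) and highest of its group in DN-SM replicate 2 (18571 FPKM). The part of the neutrophil and red blood cell genes in the S100a8 and S100a9 values was not tested.

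In DN-SM against DN, which asks what stimulation did to injured muscle, S100a4 was at 21.8 ± 2.03 and 46.0 ± 17.1 FPKM (SD, n = 3). The log2 fold change was -0.97 (SE 0.241, edgeR adjusted p = 0.144) and did not pass. Of all genes tested, 0.00987% were called in this comparison, that is 1 gene, the protease inhibitor gene Serpina3n (log2 fold change -3.73, edgeR adjusted p = 0.022), named after its value was seen. It no longer passed without any 1 of the DN libraries (adjusted p 0.122 to 0.217), without SHAM replicate 1 (0.0778) and without DN-SM replicate 2 (0.263) or 3 (0.0518). At an unadjusted p under 0.05 in the same edgeR fit there were 1784 genes, S100a4 and S100a11 among them. S100a4 passed by DESeq2 (adjusted p = 0.0254), in the fit of these 2 groups alone (0.0204), without SHAM replicate 2 (0.0445) and without SHAM replicate 3 (0.0262). With 1 library of DN or DN-SM left out, its adjusted p lay between 0.266 and 0.364.

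None of the other members passed. S100a11 had a log2 fold change of -0.49 (SE 0.188, edgeR adjusted p = 0.22) and S100a6 of -0.52 (SE 0.275, adjusted p = 0.343). On FPKM, S100a4, S100a6 and S100a11 were lower in DN-SM without overlap of the libraries, 3 of 8, beside 21.3% of all genes tested. None of the 8 was higher without overlap, beside 11.4%. For S100a6 the gap was narrow, from 31.4 FPKM in DN replicate 3 to 29.6 in DN-SM replicate 3. The TMM factors of these 2 libraries, 1.1027 and 0.9768, would reverse that order. On the log2 scale S100a10 was at -0.21 (0.04 without DN replicate 3), S100a1 at -0.15 (0.02 without DN replicate 1), S100a13 at 0.20 and S100a9 at 0.57, and their libraries overlapped. Over the 7 tested genes the median was -0.21, beside -0.01 over all genes tested.

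DN-SM against SHAM asks how stimulated injured muscle stood against uninjured muscle. S100a4 was 2.09-fold higher in DN-SM, with a log2 fold change of 1.06 (SE 0.267, edgeR adjusted p = 0.0978), which did not pass, and it passed by DESeq2 (adjusted p = 0.0215). Called genes made up 0.839% of those tested. S100a4 and S100a10 were higher in DN-SM without overlap, 2 of 8, beside 7.49% of all genes, and none was lower without overlap, beside 9.34%. S100a10 had a log2 fold change of 0.43 (SE 0.249, adjusted p = 0.512) and S100a11 of 0.16 (SE 0.192, adjusted p = 0.77). The 3 comparisons share libraries, so their values for a gene are not separate evidence.

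Set side by side per length, the 8 levels kept their ends. S100a11 led in all 9 libraries and S100a8 was last in all 9. In SHAM, S100a4 was below S100a1, S100a6 and S100a10 in every library, with 4.41% to 6.20% of the FPKM summed over the 8 genes. In DN it was the third in each library, with 13.9% to 18.8%. In DN-SM it was below S100a10 and S100a1 again in each library, with 10.2% to 11.2%. S100a1 held 16.8% to 20.8% in SHAM, 10.1% to 15.4% in DN and 13.9% to 14.7% in DN-SM. In SHAM, S100a1 was above S100a10 in every library, and S100a6 was above both in SHAM replicate 3 alone. In DN the order of S100a1, S100a6 and S100a10 changed between libraries. In DN-SM, S100a10 was above both of the others in every library. Levels of different genes were not tested against each other. The sum over the 8 genes was 146 to 225 FPKM in SHAM, 261 to 350 in DN and 190 to 220 in DN-SM.

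Across the 9 libraries the members fell into sets. Pearson's r of log2(FPKM + 1) was 0.89 between S100a4 and S100a11, 0.80 between S100a10 and S100a11 and 0.77 between S100a4 and S100a10. S100a8 and S100a9 had an r of 0.74, and S100a9 ran against S100a11 at -0.83 and against S100a10 at -0.72. S100a6 was at 0.61 with both S100a1 and S100a11, and S100a4 was at -0.09 with S100a1. These values describe 9 libraries that share groups and depth, with low counts in S100a8, and carry no test.

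**Figure D3:**
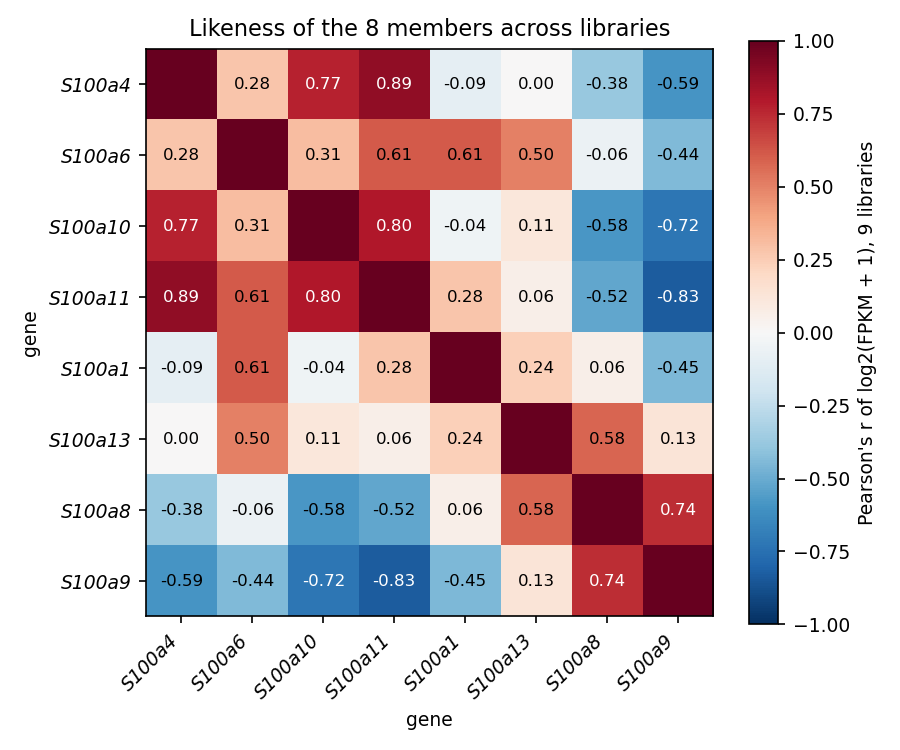
Pearson's r of log2(FPKM + 1) over the 9 libraries for each pair of the 8 S100 genes (both axes), from -1 in blue to 1 in red. S100a4, S100a10 and S100a11 are joined by values of 0.77 to 0.89, and S100a9 is at -0.83 with S100a11.

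Genes whose pattern was most like each member were sought among 5400 other genes with a mean of at least 5 FPKM, by the same r over the 9 libraries. For S100a4 they were Spg21, the endosomal protein maspardin (r = 0.986), and Lgals1, the secreted lectin galectin-1 (0.969). Lgals1 was at 393, 353 and 461 FPKM in SHAM, at 680, 685 and 726 in DN, and at 519, 490 and 527 in DN-SM. Both were picked for their likeness to S100a4 in these libraries, so that they follow its order is fixed by that choice. For S100a11 they were Vhl, a ubiquitin ligase subunit of the oxygen response (0.967), and Vat1, a vesicle membrane protein (0.965). For S100a10 they were Fyn, a Src-family kinase (0.970), and Ctnna1, the adhesion protein alpha-catenin (0.961).

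Chkb, a choline kinase (r = 0.976), and Siah2, a ubiquitin ligase (0.970), were most like S100a6. Limd1 (0.950) and Snx27, a sorting nexin (0.927), were most like S100a1. The low-count members had weaker matches: Reep6 (0.897) and the uncoupling protein Ucp2 (0.812) for S100a13, Zdhhc3 (0.906) and Eif5 (0.887) for S100a9, and Tmem248 (0.836) and Id1 (0.809) for S100a8.

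Other S100 genes gave a background for the members. Of 12 S100 genes listed in any file, 4 are not among the 8. S100a16 was at 36.7 ± 5.68, 45.5 ± 3.35 and 35.4 ± 1.30 FPKM in SHAM, DN and DN-SM (SD, n = 3), with a log2 fold change of 0.24 in DN against SHAM (SE 0.125, edgeR adjusted p = 0.283). S100b, the form of Schwann cells, was at 3.06, 1.16 and 4.84 FPKM in SHAM, at 5.14, 8.08 and 5.84 in DN, and at 2.19, 1.87 and 4.40 in DN-SM (log2 fold change 1.00, adjusted p = 0.206). Leaving out SHAM replicate 2 gave 0.62, and leaving out SHAM replicate 3 gave 1.57, where it passed (edgeR adjusted p = 0.0385). S100a16 was at 0.15 without SHAM replicate 2. On FPKM both genes were higher in each DN library than in any other library. Over all genes tested, 15.9% were higher in DN than in SHAM without overlap, and 21.3% were lower in DN-SM than in DN. For S100a16 the gap was narrow, from 42.0 FPKM in DN replicate 2 to 40.5 in SHAM replicate 3. The TMM factors of these libraries, 1.0287 and 0.9519, would reverse that order. S100a3 and S100a5 stayed at or below 1.22 FPKM and were not tested.

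Partners of the S100 proteins were followed as lists. Of 10 annexins and annexin partners, 9 were tested, and none passed in any comparison. Their median log2 fold change in DN against SHAM was 0.31, beside -0.01 over all genes tested. Anxa2, the partner of S100a10, was at 34.6, 20.4 and 34.8 FPKM in SHAM, at 33.6, 39.9 and 54.0 in DN, and at 29.0, 28.9 and 30.8 in DN-SM (DN against SHAM 0.43, edgeR adjusted p = 0.179). Within a library the S100a10 level was 0.984 to 1.06 times that of Anxa2 in SHAM, 0.946 to 1.30 times in DN and 1.27 to 1.48 times in DN-SM. The DN-SM and SHAM libraries did not overlap on this ratio. How often other pairs of genes separate the groups was not computed, for this or the other ratios given. Anxa1, the partner of S100a11, had a log2 fold change of 0.02 in DN against SHAM (adjusted p = 0.962).

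Among 10 genes written as receptors of released S100 proteins, 8 were tested. Of these 8, 1 passed, higher in DN than in SHAM, beside 2.57% of all genes tested. It was Mcam, an adhesion receptor of vessel walls, at 22.9, 23.8 and 20.7 FPKM in SHAM and 32.8, 29.0 and 46.3 in DN (log2 fold change 0.59, edgeR adjusted p = 0.0429). It passed without DN replicate 2 or SHAM replicate 3 and was lost with any other library left out, at 0.42 (adjusted p = 0.163) without DN replicate 3. The median of the 8 was 0.35. Ager, which encodes RAGE, averaged 3.54, 5.43 and 4.79 FPKM in SHAM, DN and DN-SM (DN against SHAM 0.55, adjusted p = 0.164). Tlr4 did not exceed 0.20 FPKM in any library and was not tested. That list also holds Cd68, which is a macrophage marker and no S100 receptor.

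Partners inside the cell are given gene by gene. Myh9, the non-muscle myosin bound by S100a4, was at 15.2, 17.7 and 22.0 FPKM in SHAM and 21.8, 28.7 and 33.5 in DN (log2 fold change 0.52, edgeR adjusted p = 0.109), and it passed without SHAM replicate 3 (0.69, 0.0207). Cacybp, the partner of S100a6, was at -0.48 in DN against SHAM (adjusted p = 0.306). It ran from -0.12 without SHAM replicate 2 to -0.75 without SHAM replicate 3, where it passed (0.0252). Fgf1, the cargo of S100a13, was at -0.31 (0.558). No gene ID in the series was matched to the ryanodine receptor gene Ryr1, so it has no value here. Of 20 other EF-hand genes 2 were higher and 1 lower in DN than in SHAM, beside 2.57% and 1.70% of all genes tested. The median of the 20 was -0.04. They were Capns1, the small calpain subunit (0.54, adjusted p = 0.0262), Efhd2, an actin-binding protein (0.62, 0.0493), and Cib2, a calcium- and integrin-binding protein (-2.27, 0.026). All 3 calls were lost without any 1 of the DN libraries. Capns1 was also lost without SHAM replicate 2 (adjusted p = 0.08), and Efhd2 passed only without SHAM replicate 3 (0.0403). In the other comparisons none of the listed receptors and EF-hand genes passed.

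Markers of the cells known to make S100a4 are given beside it. Among 12 fibroblast markers 2 were higher in DN than in SHAM, Thy1 (log2 fold change 0.94, edgeR adjusted p = 0.0499) and Cd34 (0.72, 0.0285), which endothelium also makes. Thy1 passed only without SHAM replicate 3 when 1 library was left out, and Cd34 was lost without any 1 of the DN libraries and without SHAM replicate 1 or 2. The median of the 12 was -0.08, and their summed level was 387 to 926 FPKM in SHAM, 596 to 815 in DN and 396 to 561 in DN-SM. In every library most of that sum came from the collagen genes Col1a1, Col1a2 and Col3a1. In SHAM replicate 3 they were at 411, 196 and 191 of the 926 FPKM. The sum therefore mainly follows collagen RNA. Pdgfra, the defining receptor of fibroblasts, was at 2.30, 0.85 and 1.34 FPKM in SHAM and 0.85, 1.81 and 1.25 in DN. Of 14 monocyte and macrophage markers 12 were tested and none passed, with a median of -0.08. They summed to 75.3 to 135 FPKM in SHAM, 85.9 to 138 in DN and 84.1 to 119 in DN-SM.

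Relative to Pdgfra, S100a4 was at 4.05 to 10.4 in SHAM, 20.0 to 52.6 in DN and 13.7 to 20.2 in DN-SM. Relative to Cd68 it was at 2.64 to 3.12, 5.44 to 13.1 and 4.07 to 6.24. On both ratios every injured library was above every SHAM library. Relative to Ptprc, the pan-leukocyte gene CD45 with at most 12 counts per library, it was at 34.5 to 116 in SHAM, 145 to 548 in DN and 78.2 to 179 in DN-SM, and DN-SM overlapped SHAM. Endothelial markers were among the genes higher in DN, 5 of 11, beside 2.57% of all genes tested. Their median was 0.62, and 2 of the 11 had a negative log2 fold change. They summed to 146 to 175 FPKM in SHAM, 218 to 285 in DN and 198 to 216 in DN-SM. With 1 library left out 0 to 6 of the 11 passed, none without DN replicate 3. So were Schwann cell markers, with 3 of 8 tested higher, beside the same 2.57%. Their median was 1.01, with sums of 72.5 to 76.6, 149 to 330 and 87.8 to 188 FPKM. With 1 library left out 0 to 5 passed, none without DN replicate 1 or 3. In DN against SHAM none of 7 tendon markers (median -0.66) and none of 8 smooth muscle and pericyte markers (median 0.17) passed. In DN-SM against SHAM 2 tendon markers were lower (median -1.37), beside 0.425% of all genes tested. In that comparison 1 endothelial marker was higher (median 0.32), beside 0.415%. The part of the endothelial and Schwann cell markers in the S100a4 values was not tested.

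**Figure D4:**
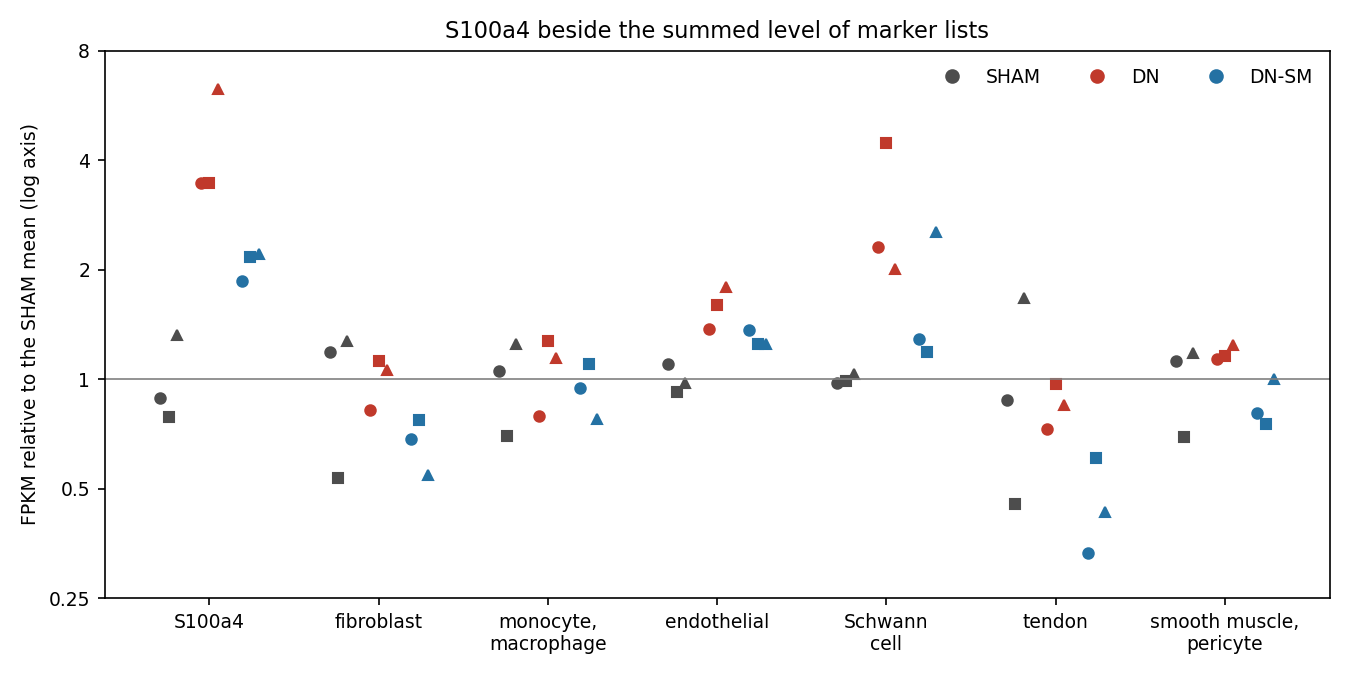
S100a4 and the summed FPKM of 6 marker lists in each library, relative to the SHAM mean of the same gene or list (vertical log axis, with the line at 1). Circles, squares and triangles are replicates 1, 2 and 3. Most of the fibroblast sum in each library is from the collagen genes Col1a1, Col1a2 and Col3a1. S100a4 reaches 36.2 to 65.8 FPKM in DN against 8.23 to 13.9 in SHAM, while the fibroblast sum (596 to 815 against 387 to 926 FPKM) and the macrophage sum (85.9 to 138 against 75.3 to 135 FPKM) overlap between the same groups. The endothelial (218 to 285 against 146 to 175 FPKM) and Schwann cell sums (149 to 330 against 72.5 to 76.6 FPKM) are higher in DN without overlap, as S100a4 is.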

How the data were processed

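Messenger RNA of 9 libraries was sequenced on a BGISEQ-500. Per the file headers, the authors deposited an expected count per gene (RSEM's estimate, not normalized), an FPKM value scaled to transcript length and depth, and a transcript length. GATK, HISAT2, RSEM and the build rn6 are named in the submitters' processing notes, while versions, order and annotation are not given in the sources used here. A gene not listed in a library counted as 0 there. Of 13752 gene IDs, 13649 matched RefSeq by ID and 7 by transcript.

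Expected counts, rounded to whole numbers, went into edgeR 4.0.16's robust quasi-likelihood test (R 4.3.3) with TMM factors. Its filterByExpr step, set to a count of 10 and a sum of 15, left 10129 genes. All 9 libraries entered 1 fit with the group as its term, and Benjamini-Hochberg adjustment ran over every gene tested, at a threshold of 0.05. The test was checked on simulated data. Alternatives were RLE or upper-quartile factors, library totals alone, DESeq2 1.42.0, no filter or a CPM of 1 in 3 libraries, fits of 2 groups, a replicate block, limma 3.58.1 on log2(FPKM + 1) or log2(FPKM + 0.1), and leaving out each library. Totals of 7926445 to 8893843 counts leave genes with few counts imprecise.

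The 8 genes and all lists were chosen with earlier results of these data known. Named beside the 8 were list members past the threshold (up to 4 a list), fixed binding partners, and the 2 genes most like each member. Marker genes of the vessel and nerve lists are not named one by one, and these lists are given by counts, medians and summed levels. The list of intracellular partners has no count or median over its genes, because the result of 1 of them is not reported here.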

Additional observations from a re-analysis of the deposited data

How the results depend on the processing

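Over 20 alternatives the tested S100 genes gave 420 log2 fold changes, of which 402 kept their direction and their side of the threshold and 2 (S100a9 and S100a13 in DN-SM against DN by DESeq2) kept their direction with no adjusted p given. The 8 that passed where the edgeR fit of all libraries did not were of S100a4 and S100a11, and no call was lost. The 8 that changed sign came from leaving out 1 library and none of them passed. S100a6 in DN against SHAM ran from -0.19 (without SHAM replicate 2) to 0.33 and was 0.00 without DN replicate 1. In DN-SM against DN, S100a1 ran from -0.30 to 0.02 (without DN replicate 1) and S100a10 from -0.43 to 0.04 (without DN replicate 3). In DN-SM against SHAM, S100a9 ran from -0.52 to 0.47 (without SHAM replicate 2) and was 0.05 without DN-SM replicate 1, and S100a13 ran from -0.13 (without DN-SM replicate 2) to 0.24 and was -0.05 without SHAM replicate 2.

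Called S100 genes in DN against SHAM numbered 1, 2 by DESeq2, 2 with the replicate block and 1 to 2 with 1 library left out. In DN-SM against DN they numbered 0, 1 by DESeq2, 1 in the fit of 2 groups and 0 to 1 with 1 library left out, and in DN-SM against SHAM 0, 1 by DESeq2 and 0 with any library left out. Over all genes, DN against SHAM gave 432 calls, 770 by DESeq2, 156 in the fit of 2 groups, 275 and 243 by limma with a pseudocount of 1 and 0.1, 112 by limma without a filter and 58 to 1183 with 1 library left out. DN-SM against DN gave 1 call, 222 by DESeq2, 716 in the fit of 2 groups, 0 by limma with a pseudocount of 0.1 and 0 to 416 with 1 library left out, the 416 without SHAM replicate 3. DN-SM against SHAM gave 85, 266 by DESeq2, 28 in the fit of 2 groups, 39 with the replicate block, 42, 43 and 12 in the 3 limma fits, and 15 to 137 with 1 library left out. Apart from fewer samples or genes in a fit, the cause was not tested.

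Deviations from the group mean correlated at -0.048 to 0.109 between libraries with the same replicate number. Libraries with different numbers were not compared, and the labels do not say what a number shares. These values therefore cannot decide whether the numbers pair the libraries. With the replicate number as a block, S100a4 in DN against SHAM stayed at 2.03 (adjusted p = 0.00287).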
